A study of Mus musculus with 16 samples.

Results

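The replication-dependent histone genes of the mouse, named Hist1 to Hist4 on the array, were followed in macrophages over 24 h of stimulation with lipopolysaccharide (LPS), a cell wall component of Gram-negative bacteria. Probes were taken where the gene name on the array began with Hist1h, Hist2h, Hist3h or Hist4h and where both arrays of 1 group or more read the probe as well above background, a test made by the scanner software. The array holds 43 such probes for 35 gene names, and 42 probes met the background criterion. One probe per gene, that with the highest mean, gave 34 genes of the 17659 genes tested, and Hist1h2be was left out because its probe was well above background on 1 array only. The 34 genes were 6 for the linker histone H1, 12 for H2A, 8 for H2B, 3 for H3 and 5 for H4. By the array's mm9 coordinates 25 lie on chromosome 13, 5 on chromosome 3, 3 on chromosome 11 and 1 on chromosome 6. No measured response entered this choice, but a low probe could pass on its 0 h level alone.

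The cells were adherent macrophages grown from the bone marrow of male C57BL/6Jax mice, either miR-155 knockout (KO) or wild type (WT), during 9 days with 10 ng/mL of the growth factor M-CSF. KO cells were sampled before LPS (0 h) and after 6, 12 or 24 h of it at 100 ng/mL, and WT cells at the same times, with 2 arrays in each of the 8 groups. The labels do not say whether the 2 samples of a group came from separate mice or cultures, so p-values measure the spread between these samples, which may be technical. The knockout could not be checked here, since no probe of the array named Mir155. Levels are given as log2 of the probe's processed intensity relative to the array's 75th percentile, so that 0 is the 75th percentile. Levels are compared between samples for 1 probe and not between probes.

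Replication-dependent histone genes supply the core histones H2A, H2B, H3 and H4, around which DNA is wound in nucleosomes, and the linker histone H1, which binds the DNA between nucleosomes. Their transcripts are made mainly during S phase, when newly copied DNA has to be packed. Most of these mRNAs end in a conserved stem-loop and carry no poly(A) tail. The stem-loop is bound by the protein Slbp, and transcription from the histone gene clusters is driven by Npat. Some members, among them Hist1h1c, Hist1h2bc and Hist2h2be, are known to give polyadenylated transcripts as well, which are found in cells that no longer divide. The labelling kit named in the labels starts cDNA from an oligo-dT primer, so that a transcript without a poly(A) tail can be under-represented. The part of this in the results was not tested.

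Arrays had upper quartiles of 271 to 730 intensity units, and the share of their probes well above background ran between 56.0% and 67.6%. Arrays numbered 1 and arrays numbered 2 were read in separate scan sessions, each with all 8 groups. The 28 pairs of groups deviated together by session (r = 0.40 to 0.84), and each result is therefore given with the session as a block where that changes a call. All 10 macrophage markers were measured, while Ly6g and Elane of the neutrophil list were not well above background on both arrays of any group. In an RNA extract of many cells, fewer cells of a type and less RNA per cell cannot be told apart.

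Among the 34 histone genes 31 had a log2 difference below 0 in KO and 29 in WT cells at 6 h of LPS, and the lowest values were those of H1 genes. Called means an adjusted p under 0.05 in limma's moderated test, adjusted by Benjamini-Hochberg over the 17659 genes. In KO cells 13 of the 34 genes fell and 2 rose at 6 h, 13 fell and 0 rose at 12 h, and 8 fell and 0 rose at 24 h. Among all genes tested, 13.8% were called lower and 12.3% higher in KO cells at 6 h, 9.91% and 9.50% at 12 h and 4.94% and 4.96% at 24 h. In WT cells 11 fell and 2 rose at 6 h, 9 fell and 2 rose at 12 h, and 10 fell and 0 rose at 24 h, beside 12.8% of all genes called lower and 12.6% higher at 6 h, 9.62% and 9.69% at 12 h and 5.38% and 5.62% at 24 h. As shares of the 34 genes, the falls were 38.2%, 38.2% and 23.5% in KO cells and 32.4%, 26.5% and 29.4% in WT cells at 6, 12 and 24 h. The median log2 change of the 34 genes was -1.61, -1.73 and -1.90 in KO cells and -1.38, -1.5 and -1.81 in WT cells, where the median of all genes lay between -0.03 and 0.06.

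With the scan session as a block the counts of falls were 21, 23 and 21 in KO cells and 19, 21 and 20 in WT cells at 6, 12 and 24 h, beside 22.7%, 18.8% and 12.4% of all genes in KO cells and 22.0%, 18.9% and 14.1% in WT cells. The blocked counts of rises were 2, 2 and 0 in KO cells and 2, 2 and 2 in WT cells, beside 21.0%, 19.6% and 11.6% of all genes in KO and 23.6%, 18.7% and 13.3% in WT cells. The same 11 genes fell at 6 h in both genotypes, which is 84.6% of the KO list and 100% of the WT list. These include Hist1h3a, and the similar probes of Hist1h2aa and Hist1h2af and of Hist1h2ai and Hist1h2ak. The matching overlap over all genes is not given. Hist1h1d (adjusted p = 0.0341 in KO and 0.054 in WT cells) and Hist1h2ac were called in KO cells only, but Hist1h1d was called in WT cells with the block (adjusted p = 0.00173), and the difference of the responses was not called for either. Hist1h2ac, Hist1h3a and Hist1h2bp were well above background on both arrays of a group at 0 h only, so that a fall is partly fixed by their choice. Without these 3 the falls among the other 31 genes numbered 11, 11 and 7 in KO and 10, 7 and 8 in WT cells, and with the block 19, 21 and 19 in KO and 18, 19 and 18 in WT cells. The 3 times of a genotype share their 0 h arrays and are not independent of each other. Single arrays moved these counts: without array 1 of 0 h the genes called in either direction at 6, 12 and 24 h numbered 6, 6 and 3 in KO cells, in place of 15, 13 and 8, and 5, 5 and 3 in WT cells, in place of 13, 11 and 10. With all arrays 26.0%, 19.4% and 9.90% of all genes were called in either direction in KO and 25.4%, 19.3% and 11.0% in WT cells. Without array 2 of 0 h they numbered 8, 7 and 4 in WT cells. Without array 2 of the LPS time itself they numbered 8, 5 and 3 in KO and 5, 2 and 3 in WT cells. Over the 6 comparisons 6 genes were called lower every time, Hist1h3a among them, and 19 were called in none. With the session as a block those numbers were 18, again with Hist1h3a, and 6.

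**Figure D1:**
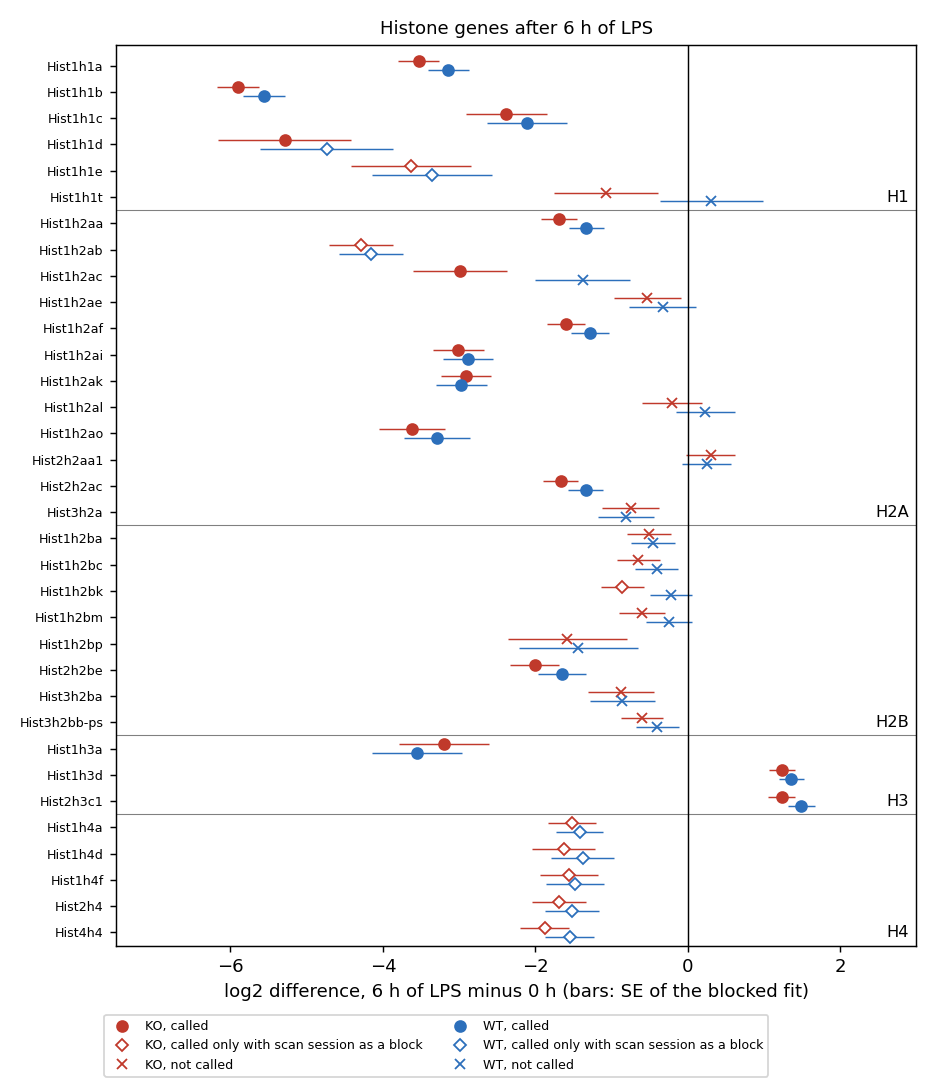
Log2 difference between 6 h of LPS and 0 h (x axis) for each of the 34 histone genes (rows, grouped by class), KO in red above WT in blue. Filled circles passed limma without a block, open diamonds passed only with the scan session as a block, crosses passed neither, and bars are standard errors of the blocked fit. H1 genes reach -5.90, the H2B genes other than Hist2h2be and Hist1h2bp stay within 1 log2 unit of 0, and Hist1h3d and Hist2h3c1 are the members called higher.

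Linker histone genes had the lowest class medians, at -3.58, -3.87 and -3.69 in KO and -3.25, -3.64 and -3.77 in WT cells at 6, 12 and 24 h. At 6 h 4 of 6 fell in KO and 3 of 6 in WT cells, beside 13.8% and 12.8% of all genes called lower. Hist1h1b, which encodes the H1.5 linker histone, had log2 levels of 3.32 and 1.39 at 0 h, -2.29 and -4.82 at 6 h, -3.01 and -5.63 at 12 h and -3.19 and -5.74 at 24 h on the KO arrays of sessions 1 and 2. On the WT arrays it had 2.89 and 1.35 at 0 h, -2.34 and -4.53 at 6 h, -3.38 and -6.12 at 12 h and -3.63 and -5.92 at 24 h. No array after LPS overlapped with a 0 h array in either genotype, and session 1 lay above session 2 in every group. After 6 h the fall was -5.90 ± 1.46 (SE, adjusted p = 0.0135) in KO cells, which is 59.9-fold, and -5.56 ± 1.46 (adjusted p = 0.0182) in WT cells, 47.1-fold. By 24 h it was 113-fold in KO and 119-fold in WT cells. On 1 of the 2 WT arrays at 12 h the probe was not well above background.

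Hist1h1d, for H1.3, was at 1.34 and -0.05 at 0 h, -3.91 and -5.39 at 6 h, -3.94 and -6.61 at 12 h and -3.55 and -7.39 at 24 h in KO cells. It was at 0.68 and 0.07 at 0 h, -3.74 and -4.99 at 6 h, -4.53 and -6.10 at 12 h and -3.47 and -8.17 at 24 h in WT cells. Its 6 h change was -5.29 ± 1.61 in KO and -4.74 ± 1.61 in WT cells, where a second, untested probe changed by -3.28 in KO and -3.85 in WT cells with session 2 above session 1 at 0 h. At 12 and 24 h its probe was well above background on 1 of the 2 arrays of each group. Hist1h1a, for H1.1, had 0.04 and -2.04 at 0 h, -3.83 and -5.22 at 6 h, -4.17 and -5.07 at 12 h and -3.98 and -5.73 at 24 h in KO cells. In comparison it had -0.44 and -1.92 at 0 h, -3.3 and -5.34 at 6 h, -3.63 and -5.18 at 12 h and -4.17 and -5.60 at 24 h in WT cells. It changed by -3.53 ± 1.03 at 6 h in KO cells (adjusted p = 0.0282) and by -3.14 ± 1.03 in WT cells (adjusted p = 0.0469). Neither gene's arrays overlapped between 0 and 6 h.

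Hist1h1c encodes H1.2, one of the linker histones with a known polyadenylated transcript. In KO cells it read 4.50 and 4.82 at 0 h, 2.36 and 2.20 at 6 h, 1.77 and -0.05 at 12 h, and 2.31 and 1.61 at 24 h. In WT cells the values were 4.45 and 4.81, 2.77 and 2.26, 2.09 and 0.29, and 2.67 and 1.68 at the same times. Its fall was 5.22-fold in KO (adjusted p = 0.025) and 4.32-fold in WT cells (adjusted p = 0.0424) at 6 h, and 13.9-fold and 10.8-fold at 12 h. The lowest values of both genotypes were at 12 h. Hist1h1e, for H1.4, read 3.94 and 2.47 at 0 h, 0.80 and -1.66 at 6 h, 1.31 and -2.80 at 12 h and 1.51 and -2.15 at 24 h in KO cells. It read 3.34 and 2.9 at 0 h, 1.55 and -2.04 at 6 h, 1.03 and -2.48 at 12 h and 1.09 and -2.52 at 24 h in WT cells, with session 1 above session 2 in every group. The gene changed by -3.63 ± 1.94 in KO and -3.36 ± 1.94 in WT cells at 6 h and was called only with the block (adjusted p = 0.00452 in KO and 0.00686 in WT cells). Hist1h1t, the testis-specific linker histone, was not called in any LPS comparison in either fit, and its 6 h differences were -1.07 ± 1.95 in KO and 0.31 ± 1.95 in WT cells.

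**Figure D2:**
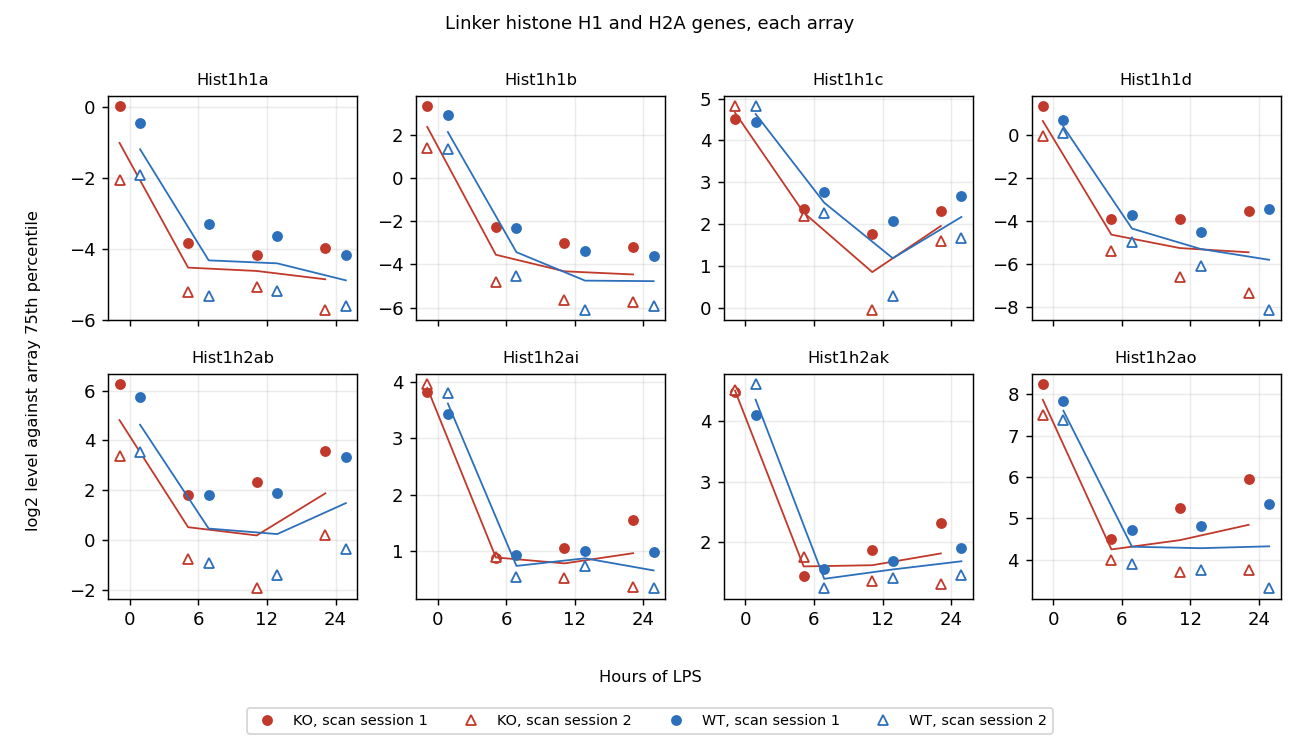
Log2 level relative to the array's 75th percentile (y axes differ between panels) at 0, 6, 12 and 24 h of LPS (x axis) for 4 H1 and 4 H2A genes, with KO in red left of WT in blue, circles for scan session 1, triangles for session 2 and lines through the means. In all 8 panels each array at 6 h lies below the 0 h arrays of its genotype, and Hist1h1c is lowest at 12 h.

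Of the 12 H2A genes 7 fell in KO and 6 in WT cells at 6 h, beside 13.8% and 12.8% of all genes called lower. The class medians were -1.68 and -1.34. Hist1h2ai and Hist1h2ak fell by nearly the same amount at every time. Their probes match at 55 of 60 positions, and so their signals cannot be assigned to either gene alone. The capitals below mark the 26-base run that the probes share.
Hist1h2ai: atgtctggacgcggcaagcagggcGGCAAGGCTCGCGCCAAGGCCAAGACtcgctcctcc
Hist1h2ak: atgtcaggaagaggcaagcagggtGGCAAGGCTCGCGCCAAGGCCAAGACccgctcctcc
The array places them at chr13:21879028-21879087 and chr13:21845637-21845696, both on the minus strand of mm9. RefSeq's gene for Hist1h2ai lies on the plus strand of GRCm38.p6, and of 28 genes that could be compared, 26 had the same strand in both sources, the other exception being Hist2h2ac.

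Hist1h2ak had levels of 4.49 and 4.52 at 0 h, 1.44 and 1.75 at 6 h, 1.87 and 1.36 at 12 h and 2.31 and 1.31 at 24 h in KO cells. On WT arrays it had 4.10 and 4.61, 1.55 and 1.23, 1.68 and 1.41, and 1.90 and 1.46. All arrays after LPS lay below the 0 h arrays of their genotype. Its fall at 6 h was -2.91 ± 0.37 in KO cells (adjusted p = 0.000338) and -2.97 ± 0.37 in WT cells (adjusted p = 0.000302). Hist1h2ai fell by 8.04-fold in KO and 7.38-fold in WT cells at 6 h. Both were called at all 3 times in both genotypes whichever single array was left out, the only 2 genes of the 34 for which this held in all 6 LPS comparisons.

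Hist1h2ao stood at 8.24 and 7.49 at 0 h, 4.50 and 3.99 at 6 h, 5.24 and 3.70 at 12 h and 5.94 and 3.74 at 24 h in KO cells. WT cells gave 7.83 and 7.37, 4.72 and 3.9, 4.80 and 3.75, and 5.34 and 3.3. Its 6 h change was -3.62 ± 0.85 in KO (adjusted p = 0.0105) and -3.29 ± 0.85 in WT cells (adjusted p = 0.0169). Hist1h2ab changed by -4.29 ± 1.99 in KO and -4.16 ± 1.99 in WT cells at 6 h. That gene was called only with the block, at adjusted p = 3.78e-05 in KO and 4.6e-05 in WT cells, its session 1 arrays lying above those of session 2 in all 8 groups.

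Smaller falls were read by the probes of Hist1h2aa and Hist1h2af, which share a 44-base run, in capitals.
Hist1h2aa: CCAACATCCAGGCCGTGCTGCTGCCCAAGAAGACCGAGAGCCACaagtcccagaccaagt
Hist1h2af: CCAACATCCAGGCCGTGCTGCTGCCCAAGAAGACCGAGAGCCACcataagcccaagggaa
They lie at chr13:24026659-24026718 and chr13:23626108-23626167, on the plus strand of mm9. Hist1h2aa is known as a testis H2A gene, and a probe of H2afj, a replacement H2A gene, also shares at least 20 bases with both. Hist1h2af read 8.42 and 7.60 at 0 h, 6.35 and 6.48 at 6 h, 6.78 and 6.10 at 12 h and 6.92 and 6.30 at 24 h in KO cells. It read 7.99 and 7.49, 6.81 and 6.12, 6.54 and 6.49, and 6.78 and 6.24 in WT cells. The levels of Hist1h2aa were 8.39 and 7.60 at 0 h, 6.35 and 6.25 at 6 h, 6.76 and 6.01 at 12 h and 6.87 and 6.30 at 24 h in KO cells, and 7.98 and 7.42 at 0 h, 6.75 and 5.98 at 6 h, 6.49 and 6.46 at 12 h and 6.74 and 6.11 at 24 h in WT cells. For both genes the arrays at 6 h lay below those at 0 h. The fall of Hist1h2af at 6 h was 3.03-fold in KO (adjusted p = 0.0146) and 2.43-fold in WT cells (adjusted p = 0.0402), and 3.23-fold and 2.52-fold for Hist1h2aa. A second probe of Hist1h2af changed by -3.65 in KO and -3.58 in WT cells at 6 h, where the chosen probe changed by -1.60 and -1.28. H2afj itself changed by -0.74 ± 0.52 in KO and -0.92 ± 0.52 in WT cells and was not called.

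Of the other H2A genes, Hist2h2ac by its probe's name fell 3.18-fold in KO (adjusted p = 0.00303) and 2.53-fold in WT cells (adjusted p = 0.01) at 6 h and was called at every later time. The array places this probe at chr3:96049751-96049810 on the plus strand of mm9, near the Hist2h2aa1 probe at chr3:96049502-96049561. RefSeq's Hist2h2ac lies on the minus strand, and which gene the probe reads was not tested. Hist1h2ac had -5.19 and -4.16 at 0 h, -7.62 and -7.71 at 6 h, -7.20 and -7.65 at 12 h and -6.12 and -7.15 at 24 h in KO cells, and -5.39 and -4.22 at 0 h, -6.07 and -6.32 at 6 h, -6.32 and -7.76 at 12 h and -6.44 and -7.80 at 24 h in WT cells. It was well above background on the 4 arrays at 0 h and on none after LPS. Its fall, given as a bound against the lowest signal that counted as well above background, was at least 2.17-fold in KO cells at 6 h and at least 1.96-fold at 12 h and, in WT cells, at least 2.14-fold at 12 h and at least 2.36-fold at 24 h, as a description of a gene that entered through its 0 h level. Hist1h2ae was called only with the block and at 24 h, while Hist1h2al, which RefSeq lists as the pseudogene H2af-ps2, and Hist2h2aa1 were called in no LPS comparison. For Hist2h2aa1 the 6 h differences were 0.30 ± 0.38 in KO and 0.25 ± 0.38 in WT cells on the chosen probe, and -0.76 and -0.71 in KO and -0.50 and -1.68 in WT cells on 2 dimmer ones. The probes of Hist3h2a also disagreed: the chosen one changed by -0.75 ± 0.42 in KO and -0.81 ± 0.42 in WT cells at 6 h and the other by 0.69 in KO and 0.86 in WT cells. With the block the chosen probe of Hist3h2a was called lower in KO cells at 24 h (limma adjusted p = 0.0196). The second probes were not tested.

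Among the H2B genes at 6 h 1 of 8 was called in each genotype, near the 13.8% of all genes called lower in KO and 12.8% in WT cells. The median change of the class was -0.76 in KO and -0.43 in WT cells at 6 h and -0.87 and -0.66 at 12 h. With the block 2 were lower in KO and 1 in WT cells at 6 h, 4 and 2 at 12 h and 0 at 24 h. Blocked shares of all genes called lower were 22.7% and 22.0% at 6 h, 18.8% and 18.9% at 12 h and 12.4% and 14.1% at 24 h. The probes of Hist1h2bk and Hist1h2bm match at 58 of 60 positions, the 52-base shared run being in capitals, and that of Hist3h2bb-ps, a pseudogene, matches Hist1h2bk at 55 of 58.
Hist1h2bk: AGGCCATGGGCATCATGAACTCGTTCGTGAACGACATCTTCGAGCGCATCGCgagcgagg
Hist1h2bm: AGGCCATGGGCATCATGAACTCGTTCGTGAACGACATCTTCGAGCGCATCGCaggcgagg
The first lies at chr13:22127928-22127987 and the second at chr13:21814139-21814198, plus strand of mm9. Hist1h2bm was at 5.25 and 5.0 at 0 h, 4.0 and 5.03 at 6 h, 4.44 and 4.33 at 12 h and 4.99 and 4.83 at 24 h in KO cells. WT cells gave 4.93 and 4.73, 4.44 and 4.71, 4.11 and 4.53, and 5.06 and 5.07. The KO arrays of 0 and 6 h overlapped. Hist1h2bk was at 5.19 and 4.99 at 0 h, 3.77 and 4.69 at 6 h, 4.37 and 4.32 at 12 h and 4.92 and 4.81 at 24 h in KO cells, and at 4.89 and 4.65 at 0 h, 4.34 and 4.75 at 6 h, 4.06 and 4.48 at 12 h and 4.96 and 5.0 at 24 h in WT cells. The 6 h change of Hist1h2bm was -0.60 ± 0.33 in KO and -0.25 ± 0.33 in WT cells, and -0.86 ± 0.32 in KO and -0.22 ± 0.32 in WT cells for Hist1h2bk, which was called with the block in KO cells (adjusted p = 0.0327).

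Hist2h2be was the H2B gene that fell without the block, in both genotypes at 6 h and in KO cells at 12 h. It read 1.44 and 1.38 at 0 h, -1.03 and -0.18 at 6 h, 0.37 and -0.03 at 12 h and 0.52 and 0.72 at 24 h in KO cells, and 1.5 and 1.23, -0.66 and 0.08, 0.44 and 0.14, and 1.01 and 0.93 in WT cells. The arrays at 6 h lay below those at 0 h without overlap. Its 6 h fall was 4.03-fold in KO (adjusted p = 0.00185) and 3.14-fold in WT cells (adjusted p = 0.00572). Between 6 and 24 h it rose again, by 1.23 ± 0.35 in KO (adjusted p = 0.0424) and 1.26 ± 0.35 in WT cells (adjusted p = 0.0435).

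Hist1h2bc, the other H2B gene with a known polyadenylated transcript, had 5.43 and 4.46 at 0 h, 4.31 and 4.27 at 6 h, 4.67 and 4.19 at 12 h and 5.25 and 4.02 at 24 h in KO cells, and 5.29 and 4.40 at 0 h, 4.57 and 4.31 at 6 h, 4.59 and 3.72 at 12 h and 4.89 and 4.44 at 24 h in WT cells. It was not called at any time in either fit. The 6 h differences were -0.65 ± 0.51 in KO and -0.41 ± 0.51 in WT cells. Hist1h2ba, known as a testis H2B gene, changed by -0.51 ± 0.32 in KO and -0.46 ± 0.32 in WT cells at 6 h without a call. With the block it was called lower in KO cells at 12 h (limma adjusted p = 0.0369). So were Hist3h2ba (adjusted p = 0.0195) and Hist3h2bb-ps (adjusted p = 0.0386).

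The 3 H3 genes went in opposite directions. Hist1h3d and Hist2h3c1 were the 2 histone genes that rose at 6 h, in both genotypes. Their probes share a 17-base run, in capitals.
Hist1h3d: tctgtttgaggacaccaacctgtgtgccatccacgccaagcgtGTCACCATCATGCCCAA
Hist2h3c1: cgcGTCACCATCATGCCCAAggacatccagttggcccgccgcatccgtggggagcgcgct
Their places are chr13:23667979-23668038 and chr3:96051157-96051216, plus strand of mm9. Hist2h3c1 stood at 6.17 and 6.80 at 0 h, 7.38 and 8.04 at 6 h, 7.22 and 7.60 at 12 h and 6.43 and 6.82 at 24 h in KO cells. In WT cells it stood at 5.80 and 6.50, 7.55 and 7.71, 7.34 and 7.75, and 6.68 and 7.09. Every 6 h array lay above the 0 h arrays of its genotype, and the KO arrays of 24 h overlapped with those of 0 h. The rise at 6 h was 1.23 ± 0.37 in KO (adjusted p = 0.032) and 1.49 ± 0.37 in WT cells (adjusted p = 0.0134).

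Hist1h3d had 5.92 and 6.34 at 0 h, 7.24 and 7.49 at 6 h, 6.88 and 6.99 at 12 h and 5.93 and 6.33 at 24 h in KO cells. In WT cells it had 5.61 and 6.07, 7.13 and 7.27, 7.08 and 7.19, and 6.25 and 6.46. It rose by 1.23 ± 0.27 in KO (adjusted p = 0.00711) and 1.36 ± 0.27 in WT cells (adjusted p = 0.00436) at 6 h. At 12 h both genes were called in WT cells, by 1.30 and 1.40, and in KO cells, at 0.80 and 0.92, only with the block (adjusted p = 0.00468 and 0.00328). By 24 h the differences were 0.00 and 0.14 in KO and 0.52 and 0.74 in WT cells, the WT values being called with the block (adjusted p = 0.0483 and 0.015). Between 6 and 24 h Hist1h3d fell by 1.23 ± 0.27 in KO cells (adjusted p = 0.0152), while its change in WT cells of -0.85 ± 0.27 was called with the block only (adjusted p = 0.00534).

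The replacement gene H3f3b, which encodes H3.3 and gives a polyadenylated mRNA outside S phase, was also highest at 6 h. Its levels were 6.32 and 7.55 at 0 h, 8.09 and 8.61 at 6 h, 7.79 and 8.18 at 12 h and 7.02 and 7.50 at 24 h in KO cells, and 6.17 and 7.26, 8.19 and 8.34, 7.76 and 8.27, and 7.28 and 7.64 in WT cells. The 6 h difference of H3f3b was 1.41 ± 0.47 in KO cells, called with the block only (adjusted p = 0.0502 without and 0.00207 with it), and it rose by 1.55 ± 0.47 in WT cells (adjusted p = 0.0349). The second H3.3 gene, H3f3a, changed by 0.17 ± 0.24 in KO and 0.18 ± 0.24 in WT cells at 6 h and was not called. Whether H3.3 transcripts bind the Hist1h3d or Hist2h3c1 probes was not tested.

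Hist1h3a was read by the 1 probe among 41174 on the array that holds the whole histone stem-loop consensus on the probe strand (0.00243% of probes). Its last 30 bases, at chr13:23853756-23853785 on the minus strand of mm9, are shown with those letters in capitals.
Hist1h3a: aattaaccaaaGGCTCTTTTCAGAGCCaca
It had levels of -2.95 and -3.24 at 0 h, -6.78 and -5.81 at 6 h, -6.33 and -7.58 at 12 h and -6.61 and -7.65 at 24 h in KO cells. In WT cells it had -3.39 and -2.98, -6.69 and -6.79, -5.89 and -7.47, and -6.60 and -8.11. The probe was well above background on the 4 arrays at 0 h and on none after LPS. The fall was at least 6.48-fold in KO and at least 5.61-fold in WT cells at 6 h, and at least 9.11-fold in KO and at least 7.29-fold in WT cells at 24 h. Since the gene entered through its 0 h level, these bounds are a description.

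**Figure D3:**
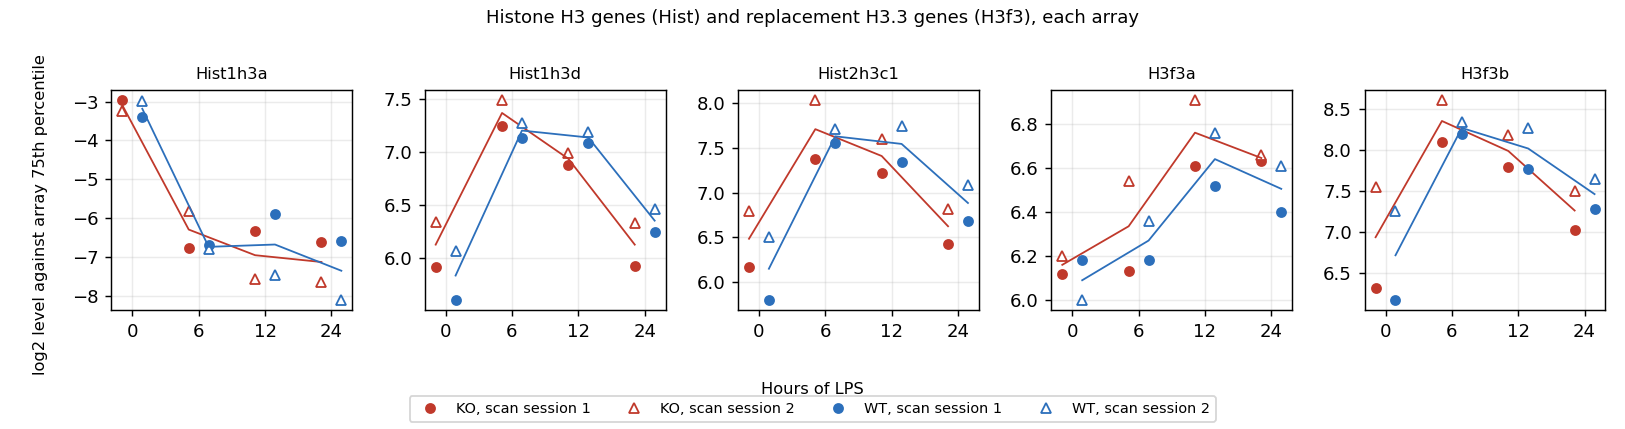
Log2 level relative to the array's 75th percentile (y axes differ between panels) at 0, 6, 12 and 24 h of LPS for the 3 H3 genes and the 2 genes of the replacement histone H3.3, KO in red left of WT in blue, circles for scan session 1 and triangles for session 2. Hist1h3d, Hist2h3c1 and H3f3b are highest at 6 h in both genotypes, and Hist1h3a is below its 0 h arrays at every later time.

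All 5 H4 genes were lower after LPS, and all were called with the session as a block at every time and in none of the comparisons without it. The probes of Hist1h4d and Hist1h4f overlap over 50 bases without a mismatch, shown in capitals, and that of Hist2h4 matches Hist1h4f at 45 of 49.
Hist1h4d: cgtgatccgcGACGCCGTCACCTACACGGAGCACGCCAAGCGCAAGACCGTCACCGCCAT
Hist1h4f: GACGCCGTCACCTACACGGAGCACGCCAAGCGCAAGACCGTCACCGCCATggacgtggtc
The first is at chr13:23673665-23673724 on the plus strand and the second at chr13:23643249-23643308 on the minus strand of mm9. Hist1h4f read 7.78 and 6.13 at 0 h, 6.40 and 4.38 at 6 h, 6.05 and 3.08 at 12 h and 5.94 and 3.14 at 24 h in KO cells. In WT cells it read 7.38 and 6.21, 6.51 and 4.10, 5.79 and 3.65, and 5.85 and 3.54. Hist1h4d read 7.22 and 5.82 at 0 h, 5.75 and 4.03 at 6 h, 5.65 and 2.83 at 12 h and 5.51 and 2.97 at 24 h in KO cells, and 6.76 and 5.77 at 0 h, 6.14 and 3.63 at 6 h, 5.20 and 3.39 at 12 h and 5.48 and 3.05 at 24 h in WT cells. For both genes each session was lower after LPS, and the 6 h and 0 h arrays overlapped across sessions, except for Hist1h4d in KO cells. The 6 h change of Hist1h4f was -1.56 ± 1.42 in KO cells, with adjusted p = 0.491 without and 0.00831 with the block, and -1.48 ± 1.42 in WT cells, with 0.503 and 0.0107. Within sessions 1 and 2 it was -1.38 and -1.75 in KO and -0.86 and -2.10 in WT cells.

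Hist4h4, whose probe shares no run of more than 8 bases with another member's, changed by -1.88 ± 1.44 in KO and -1.55 ± 1.44 in WT cells at 6 h (adjusted p with the block 0.00107 and 0.00329). The class median went further at later times, at -1.63, -2.39 and -2.42 in KO and -1.48, -2.06 and -2.09 in WT cells at 6, 12 and 24 h. Session 1 minus session 2 of the H4 genes was 0.99 to 1.72 at 0 h and 1.70 to 2.96 after LPS. For the H2B genes it was -0.90 to 0.97 at 0 h and -1.03 to 1.86 after LPS. The 7 measured neutrophil markers of 9 also had the higher summed level in session 1, at 9.89 to 49.7 against 0.693 to 4.25 in session 2, in units of the 75th percentile intensity. The sum was also lower at later times, at 31.6, 23.8, 18.5 and 11.2 in session 1 and 4.25, 1.84, 2.01 and 0.828 in session 2 of KO cells at 0, 6, 12 and 24 h. It was 49.7, 43.9, 29.2 and 9.89 and 3.38, 1.5, 1.31 and 0.693 in WT cells. Most of the sum came from S100a9 and S100a8, and the markers did not all move together. At 12 h the mean of Camp was -1.86 in KO and -2.52 in WT cells, against -3.72 and -3.73 at 0 h. S100a8 was at 1.41 and 1.38, against 1.08 and 1.11, while the other measured markers were lower than at 0 h. At 24 h the median change of the 7 was -2.87 in KO and -2.77 in WT cells, with 0 called without the block and 3 and 4 lower with it. Of all genes 12.4% in KO and 14.1% in WT cells were lower with the block. The part of these markers in the histone levels was not tested.

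**Figure D4:**
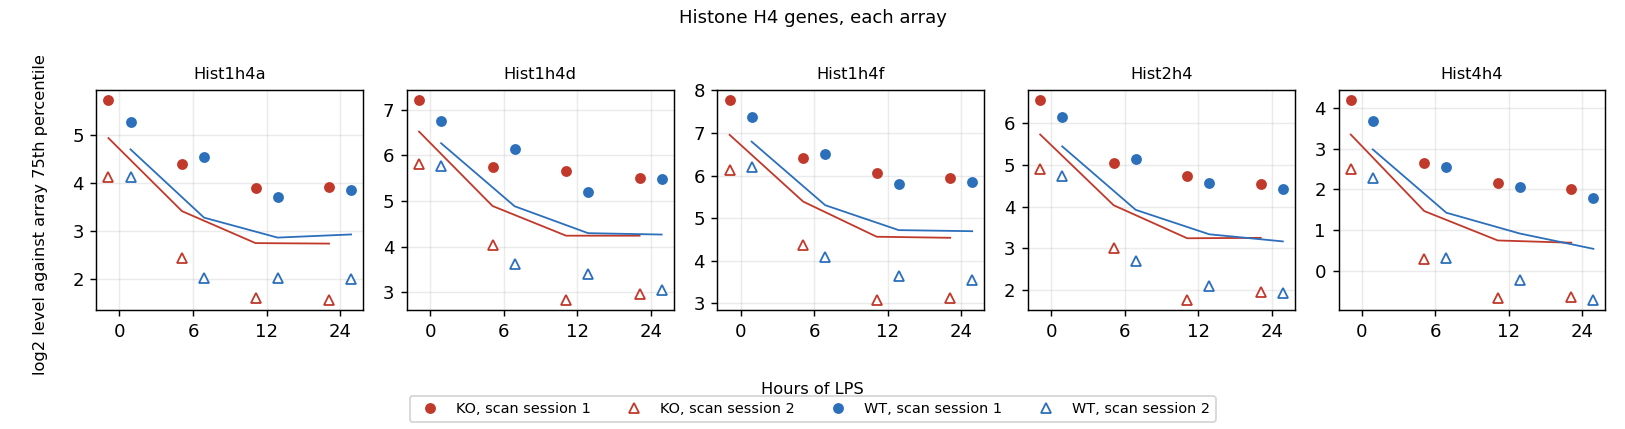
Log2 level relative to the array's 75th percentile (y axes differ between panels) at 0, 6, 12 and 24 h of LPS for the 5 H4 genes, KO in red left of WT in blue, circles for scan session 1 and triangles for session 2. Both sessions decline in both genotypes, and session 1 lies above session 2 in each of the 8 groups by 0.99 to 2.96.

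Between 6 and 24 h few histone genes moved. In KO cells 1 rose and 1 fell, beside 7.07% of all genes called higher and 5.80% lower, and in WT cells 1 rose and 0 fell, beside 5.62% and 4.86%. With the block 2 rose and 4 fell in KO cells and 1 rose and 5 fell in WT cells, beside 16.2% of all genes higher and 16% lower in KO and 13.9% higher and 16.1% lower in WT cells. Without most single arrays, arrays of other groups included, 1 was called in KO and 0 in WT cells, and without array 1 of KO at 6 h 0 were called in KO cells. The median difference was -0.26 in KO and -0.23 in WT cells, where that of all genes was -0.11 and -0.17. The list of 40 other S phase genes, which encode replication factors and nucleotide enzymes, had 7 genes that rose and 1 that fell in KO cells and 6 that rose and 1 that fell in WT cells at this step, with medians of 0.85 and 0.71. With the block 19 rose and 3 fell in KO and 18 rose and 3 fell in WT cells. Among them Dnmt1, the maintenance DNA methyltransferase, rose by 2.20 ± 0.26 in KO (adjusted p = 0.000829) and 1.76 ± 0.26 in WT cells (adjusted p = 0.00296). Pold1, the catalytic subunit of DNA polymerase delta, rose by 2.61 ± 0.36 in KO (adjusted p = 0.0019) and 1.99 ± 0.36 in WT cells (adjusted p = 0.00772).

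Against 0 h, the S phase list had at 6 h 0 genes higher and 21 lower in KO cells and 0 higher and 19 lower in WT cells, with medians of -1.72 and -1.66. By 24 h 6 were lower in KO cells (median -0.77) and 8 in WT cells (median -0.87). Of all genes, 13.8% in KO and 12.8% in WT cells were called lower at 6 h and 4.94% and 5.38% at 24 h. With the block 31 of the list in KO and 32 in WT cells were lower at 6 h and 19 and 20 at 24 h. In each genotype 1 was higher with the block at 6 h and 0 at 24 h. The blocked shares of all genes called lower were 22.7% in KO and 22.0% in WT cells at 6 h and 12.4% and 14.1% at 24 h. At 6 h 21.0% and 23.6% were called higher. Rfc3 had a mean of 1.69 in both genotypes at 6 h, against -0.46 in KO and -0.49 in WT cells at 0 h. Pcna and Mcm10 also read higher at 6 h in both. Rrm2, a subunit of ribonucleotide reductase that was well above background on 1 of the 2 arrays of each genotype at 6 h, fell by 4.90 ± 0.74 in KO (adjusted p = 0.000893) and by 4.75 ± 0.74 in WT cells (adjusted p = 0.00112) at 6 h. Ccna2, the S phase cyclin A2, fell by 4.96 ± 0.75 in KO (adjusted p = 0.000885) and 4.95 ± 0.75 in WT cells (adjusted p = 0.000931). Of 5 general markers of dividing cells, Top2a, Ccnb1 and Cdk1 fell at 6 h in both genotypes. Mki67 was lower without a call, at means of 3.08 in KO and 3.01 in WT cells, against 3.96 and 3.86 at 0 h. Bub1 went the other way, at -0.04 in KO and 0.29 in WT cells, against -0.55 and -0.68, and was called in WT cells with the block only. The summed level of the 5, most of it from Mki67, was 10.1 and 10.3 in KO cells at 6 h, against 23.7 and 19.8 at 0 h. In WT cells it was 9.7 and 10.4 at 6 h, against 18.6 and 23.2 at 0 h. The part of cell division in the histone values was not tested.

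**Figure D5:**
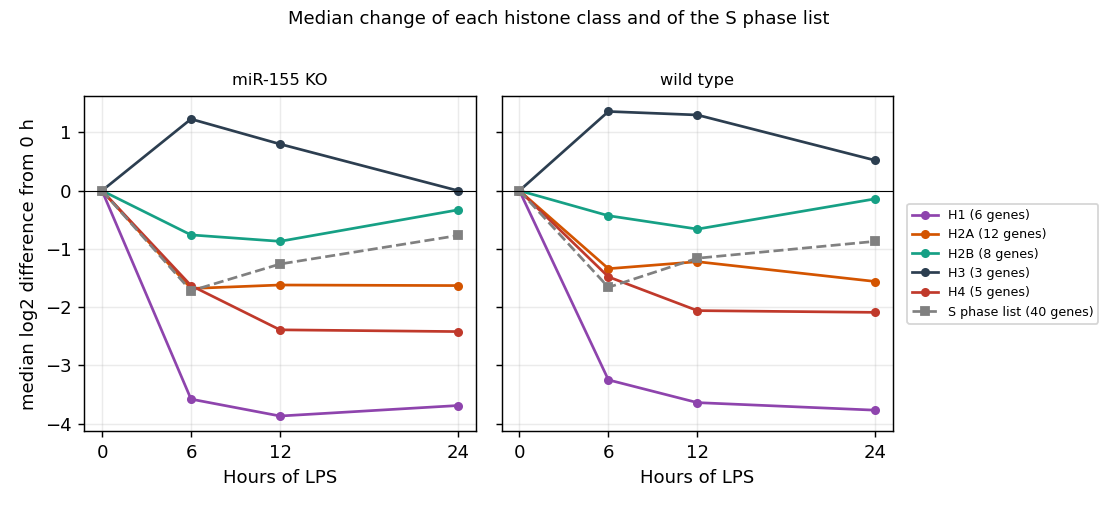
Median log2 difference from 0 h (y axis) at 6, 12 and 24 h of LPS (x axis) for the 5 histone classes and for the list of 40 S phase genes (dashed), KO in the left panel and WT in the right. H1 stays between -3.25 and -3.87, H4 declines to -2.42 in KO and -2.09 in WT cells, and the S phase list is at -0.77 and -0.87 by 24 h.

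Of 26 measured genes that make and remove histone mRNA, 3 rose and 3 fell in KO cells and 4 rose and 2 fell in WT cells at 6 h, and with the block 7 rose and 4 fell in KO and 6 rose and 5 fell in WT cells. Without the block, shares of all genes at 6 h were 12.3% higher and 13.8% lower in KO and 12.6% higher and 12.8% lower in WT cells. The unblocked counts of the list in KO cells lay near these shares. With the block the shares were 21.0% higher and 22.7% lower in KO and 23.6% higher and 22.0% lower in WT cells. Slbp, the stem-loop binding protein, was at 2.06 and 2.44 at 6 h, against 2.42 and 2.53 at 0 h, in KO cells, and at 2.23 and 2.29 at 6 h, against 2.26 and 2.65 at 0 h, in WT cells. Its change was -0.23 ± 0.27 in KO and -0.19 ± 0.27 in WT cells, and Slbp was called at no time in either fit. Npat, the coactivator of histone genes, changed by -1.10 ± 0.59 in KO and -0.89 ± 0.59 in WT cells and was not called at 6 h. Hinfp, a factor that binds H4 gene promoters, rose by 2.71 ± 0.57 in KO (adjusted p = 0.00572) and 2.88 ± 0.57 in WT cells (adjusted p = 0.00416). Cstf2 and Cpsf2, which take part in cleavage of the mRNA 3′ end, also rose, by 2.13 ± 0.67 and 1.43 ± 0.26 in KO and 2.45 ± 0.67 and 1.37 ± 0.26 in WT cells. Pou2f1, which encodes the octamer binding factor Oct-1, fell by 1.23 ± 0.35 in KO (adjusted p = 0.0257) and 1.22 ± 0.35 in WT cells (adjusted p = 0.027). Ncbp2, a subunit of the cap binding complex, fell by 1.0 ± 0.31 in KO (adjusted p = 0.0356) and 1.09 ± 0.31 in WT cells (adjusted p = 0.0239). Ccne2, the cyclin E2 that activates Cdk2, was not well above background on either KO array at 6 h, where it was at least 7.14-fold lower than at 0 h (adjusted p = 0.00432), and its change of -1.71 ± 0.61 in WT cells was called with the block only (adjusted p = 0.0672 without and 0.0189 with it). Ccne1, the other cyclin E gene of the list, went the other way. It had means of 2.57 in KO and 2.29 in WT cells at 6 h, against 1.27 and 1.33 at 0 h, and was well above background on all 16 arrays.

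Of the 19 histone chaperones and their partners, 2 rose and 6 fell at 6 h in both genotypes, beside the same unblocked shares of all genes, to which the 2 rises are near. With the block 3 rose and 6 fell in KO cells, beside 21.0% of all genes higher and 22.7% lower. In WT cells 3 rose and 7 fell with the block, beside 23.6% higher and 22.0% lower. Chaf1a and Chaf1b, subunits of the complex that places new H3 and H4 behind the replication fork, fell by 3.01 ± 0.52 and 2.75 ± 0.42 in KO and by 2.97 ± 0.52 and 2.22 ± 0.42 in WT cells. Asf1b, which hands H3 and H4 to that complex, fell by 2.87 ± 0.37 in KO and 2.9 ± 0.37 in WT cells. Daxx, a chaperone of the replacement histone H3.3, rose by 4.13 ± 0.41 in KO (adjusted p = 8.23e-05) and 4.37 ± 0.41 in WT cells (adjusted p = 5.78e-05), and Asf1a rose by 1.63 ± 0.43 and 1.75 ± 0.43. Among 10 measured replacement histones of 11 listed, Cenpa, the centromeric H3, H2afx, which marks DNA breaks when phosphorylated, and H2afv fell in both genotypes, Cenpa by 4.05 ± 0.81 in KO and 3.66 ± 0.81 in WT cells. In KO cells 0 rose and in WT cells 1, H3f3b. With the block 3 fell in each genotype, and 2 rose in KO and 3 in WT cells. The shares of all genes are those given for the chaperones. H2afy had means of 3.52 in KO and 3.29 in WT cells at 6 h, against 2.48 and 2.45 at 0 h.

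No histone gene could be called different between the genotypes. In limma's test 0 of the 34 genes differed between KO and WT cells at 0, 6, 12 or 24 h, with or without the block, and 0 differed in the response to LPS at any time or in the joint F test. At an unadjusted p under 0.05, 1 gene differed at 6 h, Hist1h2ac, and 0 did in the other comparisons. Among all genes 0 were called at 0, 6 and 24 h and 0.0113% at 12 h, and 0% in the tests of the response, all without the block. With the block the shares were 0.00566%, 0.0113%, 0.0170% and 0% at the 4 times, 0%, 0.00566% and 0% for the response at 6, 12 and 24 h and 0.0113% in the joint test. At 0 h 32 of the 34 genes read higher in KO cells, by a median of 0.22 (0.40 in session 1 and 0.07 in session 2), beside a median of 0.01 over all genes. The medians at 6, 12 and 24 h were -0.05, -0.09 and 0.02. Differences at 0 h ran between -0.11 ± 0.75 for Hist1h2al and 0.51 ± 1.95 for Hist1h1t.

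Hist1h2ac, at -7.62 and -7.71 in KO and -6.07 and -6.32 in WT cells at 6 h, differed by -1.47 ± 0.64 (unadjusted p = 0.044, adjusted p = 1), but its probe was not well above background on any of these 4 arrays. The joint test of the response gave unadjusted p = 0.216 for Hist1h2ac, 0.466 for Hist1h3d and 0.56 for Hist1h2bk, the smallest of the 34. Of these, Hist1h3d responded by -0.13 ± 0.38, -0.49 ± 0.38 and -0.51 ± 0.38 in KO minus WT cells at 6, 12 and 24 h, and Hist1h2bk by -0.64 ± 0.45, -0.25 ± 0.45 and -0.44 ± 0.45.

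RefSeq promoter sequences (GRCm38.p6, 250 bases before to 50 after the start) matched 28 of the 34 genes. Both strands were searched for letters known from histone promoters. CCAAT, bound by the factor NF-Y, was in 26 of 28, beside 41.1% of 27025 genes. TATAAA was in 19 of 28 beside 15.7%, and the octamer ATTTGCAT in 9 of 28 beside 1.97%, these being 6 of 11 H2A and 3 of 5 H2B genes. Of the E2F-type letters TTTGGCGC and TTTCCCGC, 0 and 1 of 28 held a match, beside 0.585% and 1.24% of all genes. The 250 bases before the start are shown, with the letters in capitals, for 3 genes. These are Hist1h1b, which fell most, Hist1h2ab, which fell with the block, and Hist1h2bk, which was called in KO cells at 6 h with the block. ATTTGCAT is present in Hist1h2ab and Hist1h2bk and absent from Hist1h1b. Whether the letters go with the size of a fall was not tested.
Hist1h1b: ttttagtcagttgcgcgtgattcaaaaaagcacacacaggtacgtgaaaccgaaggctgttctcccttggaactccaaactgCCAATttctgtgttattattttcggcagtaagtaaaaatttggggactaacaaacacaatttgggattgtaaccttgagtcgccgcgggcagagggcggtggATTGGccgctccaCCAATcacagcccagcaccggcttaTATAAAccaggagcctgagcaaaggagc
Hist1h2ab: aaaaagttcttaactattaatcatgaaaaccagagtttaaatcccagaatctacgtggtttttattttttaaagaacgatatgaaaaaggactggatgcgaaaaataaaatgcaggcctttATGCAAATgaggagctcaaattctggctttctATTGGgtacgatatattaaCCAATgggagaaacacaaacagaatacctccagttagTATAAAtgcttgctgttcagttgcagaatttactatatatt
Hist1h2bk: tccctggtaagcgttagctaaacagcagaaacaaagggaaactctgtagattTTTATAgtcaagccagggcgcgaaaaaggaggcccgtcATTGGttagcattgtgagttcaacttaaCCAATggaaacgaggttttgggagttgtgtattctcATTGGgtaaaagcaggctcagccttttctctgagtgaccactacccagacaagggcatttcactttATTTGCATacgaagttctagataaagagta
They cover chr13:21780626-21780875 on the minus strand and chr13:23750838-23751087 and chr13:22035571-22035820 on the plus strand of GRCm38.p6. The TATAAA match begins 28 bases before the start in Hist1h1b and 41 bases before it in Hist1h2ab. In Hist1h2bk the marked match lies on the other strand, 198 bases before the start. The counts above took a match at any position and on either strand. A match describes the letters only.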

How the data were processed

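Each sample was hybridised to its own 1-colour Agilent array. Per the file headers, the deposited intensity of each spot was read with Feature Extraction 10.5.1.1 on the mm9 probe annotation. The deposited series table of log2 values, used as an alternative, matched the log2 intensities at r = 1. Spots flagged as outliers (61 to 108 on an array) or used as controls (1639) were left out. Repeated spots of a probe were averaged as log2 intensity, less the 75th percentile of its array. Gene names came from the array file and RefSeq. The brightest probe of each gene among 26855 well above background on both arrays of a group was kept. limma 3.58.1 in R 4.3.3 fitted 8 group means with empirical Bayes moderation (8 residual degrees of freedom), Benjamini-Hochberg threshold 0.05, and was tested on simulated data. The replicate number is the scan session per the file headers, and same-numbered arrays deviated together in 28 of 28 pairs of groups (0.40 to 0.84, median 0.58), so the session was also fitted as a block (7 residual degrees of freedom). Values after ± are standard errors without the block. The precision is limited by 2 arrays per group. Named genes were the 2 brightest per class, the 4 largest called changes each way per comparison, the 3 smallest p-values of the joint test, Hist1h1c, Hist1h2bc and Hist2h2be, and called genes of the lists (up to 4 each way at 6 h, of which some are printed) with Slbp and Npat. Other genes were named after their values were seen. The genes, the lists and the naming rule were chosen with earlier results of these data known.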

Additional observations from a re-analysis of the deposited data

Results flagged for a closer look

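A pair of near-identical probes changed in opposite directions in the genotypes at 24 h of LPS, in both scan sessions. Hist1h2bk lay below its 0 h level by -0.28 and -0.17 in KO cells and above it by 0.08 and 0.36 in WT cells, a difference of -0.44 ± 0.45 between the responses (limma adjusted p = 1 with and without the block). For Hist1h2bm the changes were -0.25 and -0.17 in KO and 0.12 and 0.35 in WT cells, a difference of -0.44 ± 0.47 (adjusted p = 1 in both fits). The probes match at 58 of 60 positions and are not independent, and neither difference passed its test. A second probe of Hist1h2bk did not show opposite directions: it changed by -0.37 in KO and -0.09 in WT cells at 24 h, and its WT array of session 1 was at 3.82 at 24 h, against 4.16 at 0 h.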

How the results depend on the processing

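Counts of histone genes called in either direction are given for KO cells at 6, 12 and 24 h and then for WT cells at the same times, where the fit without a block gave 15, 13, 8, 13, 11 and 10. With the replicate block they were 23, 25, 21, 21, 23 and 22, and with the slide as a random block 23, 24, 22, 23, 23 and 22. Background correction by normexp left 3, 4, 2, 3, 4 and 1. It also turned the 12 h change of Hist1h2ac to 1.0 in KO and 1.38 in WT cells, of Hist1h3a to 0.48 in KO and 0.88 in WT cells, and in WT cells of Hist1h3d to -0.18 and Hist2h3c1 to -0.08. Local background reached 722571 units on single spots, with array medians of 18 to 21, and normexp with the background capped at its 99th percentile, chosen after seeing the data, gave 12, 11, 9, 12, 10 and 7 with no reversal. Quantile normalization gave 13 in KO cells at 24 h and 18 in WT cells at 12 h, and no filter on dim probes gave 4 in WT cells at 24 h. Between 6 and 24 h, with 2 called in KO and 1 in WT cells, the counts were 6 and 6 with the replicate block, 4 and 5 with the slide, 0 and 0 with median scaling or normexp, and 1 and 0 without the filter. Leaving out 1 array at a time gave 6 to 15, 5 to 14, 3 to 9, 5 to 13, 2 to 13 and 3 to 10 for the LPS comparisons and 0 to 2 in KO and 0 to 1 in WT cells between 6 and 24 h, and no called value changed sign. Genotype comparisons gave 0 under every alternative run. Signal over background limits Hist1h2ac and Hist1h3a to bounds after LPS.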
